A study of Mus musculus with 16 samples.

Results

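BMAL1 binding near Hif1a and Nfe2l2, the genes of a regulator of the response to low oxygen and of a regulator of the response to oxidative stress, was described in mouse liver. The members were the intervals of the authors' merged peak table whose nearest gene was given as Hif1a or Nfe2l2, at any distance, with the peaks of the single libraries inside them. There were 6 such intervals of 7043, 5 at Hif1a and 1 at Nfe2l2, and they held 7 and 4 peaks. Both genes were chosen by their calls in these lists, so the calls, ranks and enrichments at them are described without a test.

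The data were chromatin immunoprecipitation and sequencing of liver from C57bl6 mice aged 8 to 16 weeks, with 8 BMAL1 libraries and 8 IgG libraries. Each combination of sex, treatment (misaligned or control) and time (ZT12 or ZT0, hours after lights on in a cycle of 12 h light and 12 h dark) had 1 library of each kind, made from the pooled livers of 3 to 4 mice. All mice, controls included, were switched from chow to a diet with 42% of calories from fat when the misalignment or control schedule began. The schedule itself is not described in the labels. Each of the 8 combinations of sex, treatment and time had no replicate, so libraries are compared side by side over 4 pairs per contrast. In whole liver a site bound in fewer cells and a site bound less in each cell cannot be told apart.

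HIF1A is made continuously and, while oxygen is plentiful, is hydroxylated by the EGLN enzymes and destroyed through the VHL ubiquitin ligase. When oxygen falls it pairs with ARNT and switches on genes of glycolysis, mitophagy and vessel growth through elements with the core ACGTG. NRF2, the product of Nfe2l2, is held in check by KEAP1 and CUL3, and under oxidative stress pairs with small MAF proteins on antioxidant response elements of detoxification and glutathione genes. BMAL1 belongs to the same bHLH-PAS family as HIF1A and ARNT, and with CLOCK it binds the E-box CACGTG, which contains the HIF core.

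The strongest interval at Hif1a covered its promoter and an E-box, while the interval at Nfe2l2 lay inside the gene. The sequences below are the 250 bases before the RefSeq start of each gene (RefSeq, GRCm38.p6), printed 5′ to 3′ on the gene's strand, with the E-box (CACGTG) and the related E-prime box (CACGTT, or AACGTG on the other strand) in capitals. In the Nfe2l2 sequence the capitals mark the core of an antioxidant response element (TGACNNNGC). The Hif1a window is chr12:73907617-73907866 on the plus strand and the Nfe2l2 window is chr2:75704664-75704913 on the minus strand. They are shown because the Hif1a summits fall in this stretch and those of Nfe2l2 do not.
Hif1a promoter: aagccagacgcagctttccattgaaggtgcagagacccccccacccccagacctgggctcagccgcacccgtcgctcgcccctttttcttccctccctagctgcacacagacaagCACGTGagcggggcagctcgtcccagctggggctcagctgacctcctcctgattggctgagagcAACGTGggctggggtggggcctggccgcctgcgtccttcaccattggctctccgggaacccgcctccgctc
Nfe2l2 promoter: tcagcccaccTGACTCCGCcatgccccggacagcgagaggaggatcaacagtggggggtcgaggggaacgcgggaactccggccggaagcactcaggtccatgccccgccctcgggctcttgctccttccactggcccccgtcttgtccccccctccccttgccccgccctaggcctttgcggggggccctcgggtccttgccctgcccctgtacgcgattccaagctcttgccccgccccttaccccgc

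The Hif1a promoter interval (chr12:73907385-73907942, GRCm38) held a peak in 3 libraries, all of them male. The summit, the base with the most fragments, was at 73907732 in male misaligned ZT12 and 73907722 in male control ZT12, with 73907735 in male misaligned ZT0. The E-box occupies bases 73907732 to 73907737, from -135 to -130 of the RefSeq start. The summits thus lay 2.5 bp, 12.5 bp and 0.5 bp from the centre of the E-box in these libraries. The E-prime box, at -71 to -66, was farther from the summit in each of the 3 libraries. The authors' table gives this interval a distance of -30007 bp, measured to the start of 1 Hif1a transcript, and names it a promoter of Hif1a in another column. RefSeq has the gene at chr12:73901324-73947554 on the plus strand, so the interval lies inside the longest gene model, at the start of the transcript used here (73907867).

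An E-box on either strand stood in 6.02% of 32851 promoter windows of this length, and an E-prime box in 3.85%. Among the windows that held a summit, the share with an E-box was 27.6% to 52.6% over the 8 libraries. The HIF core ACGTG, counted on both strands and including those inside E-boxes and E-prime boxes, was in 16.6% of all windows, and the Hif1a window has it at both boxes. Over 579 summits in windows with an E-box, the median distance to the nearest E-box centre was 25.5 bp, and 2.42%, 7.08% and 30.2% of them were as near as the Hif1a summits of male misaligned ZT0, male misaligned ZT12 and male control ZT12.

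**Figure D1:**
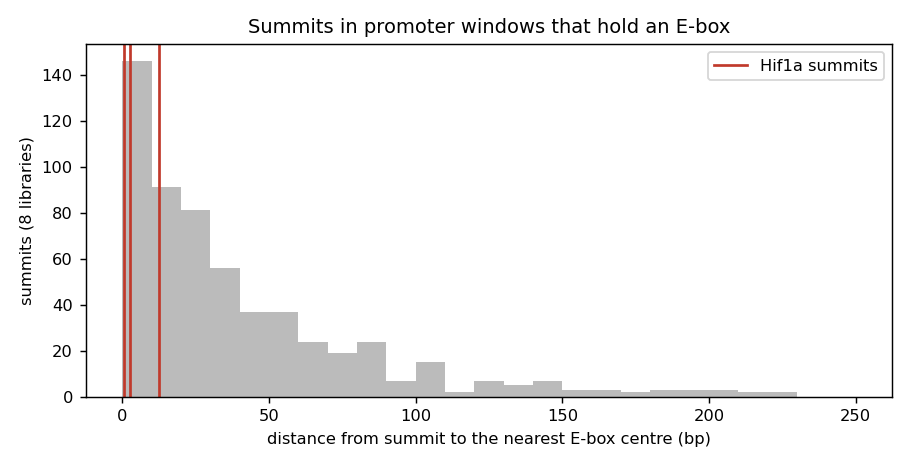
Histogram of the distance in bp from each summit to the nearest E-box centre, for 579 summits of the 8 libraries that fall in a 250-base promoter window with an E-box (grey), with the 3 Hif1a summits as red lines. The Hif1a summits lie at 0.5, 2.5 and 12.5 bp, in the first bars of the histogram.

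At the Hif1a promoter the peak caller's values correspond to 101 fragments at the summit in male misaligned ZT12 over an expected local background of 9.85. The fold enrichment, which adds 1 to both numbers, was 9.40, and the -log10 q, the peak caller's adjusted p on a scale where higher is stronger, was 59.8. Male control ZT12 had 53 fragments over 6.60, with a fold enrichment of 7.11 and a -log10 q of 24.7. Male misaligned ZT0 had 80 fragments over 8.12, with a fold enrichment of 8.88 and a -log10 q of 45.1. The other 5 libraries, which were male control ZT0 and all 4 female libraries, had no peak there. In each list, 3.08% (female misaligned ZT12), 1.96% (female control ZT12), 18.8% (female misaligned ZT0), 3.17% (female control ZT0), 78.7% (male misaligned ZT12), 4.06% (male control ZT12), 26.4% (male misaligned ZT0) and 5.21% (male control ZT0) of all 7043 intervals were called.

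The background at this place in the libraries with no call was not measured. If it were the median of the Hif1a promoter where it was called (1.88 times the lowest of its list), 30 fragments, a ratio of fragments to background of 2.59, would reach the weakest p of the male control ZT0 list. On the same assumption the lowest callable ratio of the 4 female lists was at most 2.75. The ratios measured were 10.3 (95% counting interval 8.36 to 12.5, exact Poisson) in male misaligned ZT12 and 8.03 (6.02 to 10.5) in male control ZT12, with 9.85 (7.81 to 12.3) in male misaligned ZT0. The intervals of the 3 libraries overlap. Why the other lists have no call was not tested. Counting intervals cover neither differences between mice nor duplicate reads.

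**Figure D2:**
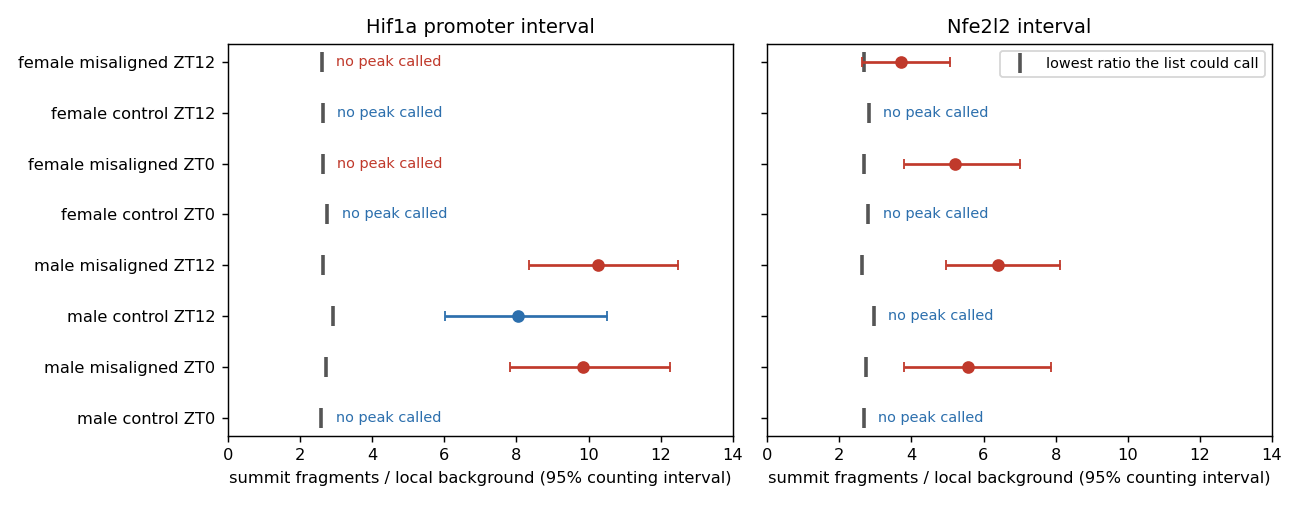
Ratio of summit fragments to local background at the Hif1a promoter interval (left) and the Nfe2l2 interval (right) in each library, misaligned in red and control in blue, with exact Poisson 95% counting intervals; the grey tick is the lowest ratio that list could call if its background there were the member's median. Hif1a stands at 8.03 to 10.3 in 3 male libraries and Nfe2l2 at 3.71 to 6.40 in the 4 misaligned libraries.

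Upstream of Hif1a, 4 further intervals were each called in 1 library and were weaker. The strongest, chr12:73779442-73780074, was called in male misaligned ZT12 with 43 fragments (fold enrichment 5.00, -log10 q 14.4, rank 1037 of 5542). It lies inside the lncRNA gene Gm34189 and 1257 bp from Prkch, a protein kinase C gene, with its summit at -128084 bp from the Hif1a start. By position it is nearer to those genes than to the one the table names. The intervals chr12:73793791-73794377 and chr12:73838243-73838592, also called in male misaligned ZT12, had -log10 q of 1.74 and 2.40 and ranked 5294 and 4779. Their nearest RefSeq gene was likewise not Hif1a but the lncRNA gene Gm8075, at 1266 bp and 29832 bp. The interval chr12:73883960-73884273, with its summit at -23882 bp, was the only peak given to Hif1a in a female library, female misaligned ZT0, with 23 fragments, a -log10 q of 2.10 and rank 1251 of 1330. These 3 ranked between 86.2% and 95.5% of the way down their lists.

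The Nfe2l2 interval (chr2:75703443-75704203) was called in all 4 misaligned libraries and in no control library. It lies inside the gene, whose RefSeq span is chr2:75675513-75704663 on the minus strand, with summits 894 to 920 bp after the start. The authors' table places it 666 bp from the start and names it a promoter of ENSMUSG00000087222, the divergent transcript E030042O20Rik. Summits were at 75703769 in female misaligned ZT12, 75703752 in female misaligned ZT0, 75703743 in male misaligned ZT12 and 75703745 in male misaligned ZT0.

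Female misaligned ZT12 had 39 fragments at Nfe2l2 over a background of 10.5, with a fold enrichment of 3.47 and a -log10 q of 6.63. Female misaligned ZT0 had 44 over 8.43, with a fold enrichment of 4.77 and a -log10 q of 13.3. Male misaligned ZT12 had 68 over 10.6, with 5.93 and 27.4 for the same measures, and male misaligned ZT0 had 32 over 5.75, with 4.89 and 9.74. The ratio of fragments to background was 3.71 (95% counting interval 2.64 to 5.07, exact Poisson) in female misaligned ZT12 and 6.40 (4.97 to 8.11) in male misaligned ZT12, with 5.22 and 5.57 in the ZT0 libraries. With the background assumed in the same way, the lowest callable ratio in the control lists was 2.82 in female ZT12, 2.81 in female ZT0, 2.96 in male ZT12 and 2.69 in male ZT0. The counting interval of female misaligned ZT12 reaches below these values. The control background there was not measured and the gene was chosen by these calls, so no difference from controls is read from the ratios.

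**Figure D3:**
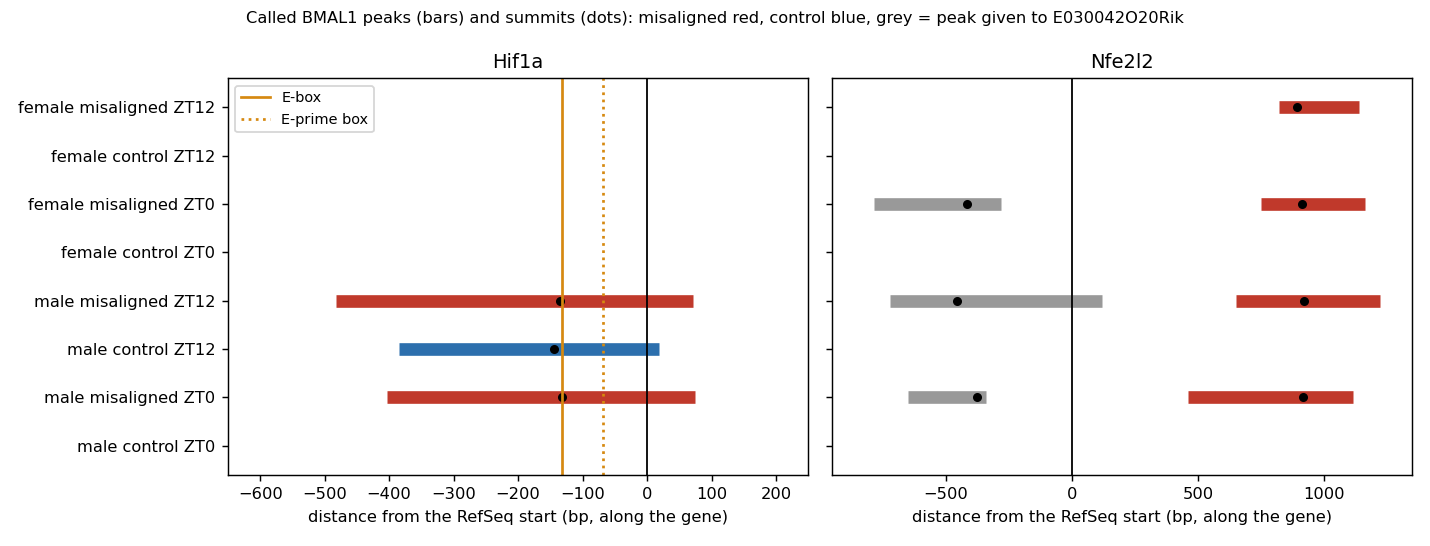
Peaks (bars) and summits (dots) of each library by distance in bp from the RefSeq start of Hif1a (left) and Nfe2l2 (right), counted along the gene; misaligned libraries are red, control libraries blue, and grey bars are the peaks the authors give to E030042O20Rik. Hif1a summits lie at -145, -135 and -132, on or just before the E-box (solid orange line), and Nfe2l2 summits lie between 894 and 920 bp inside the gene.

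The summits of the different libraries fell close together. They spanned 13 bp at the Hif1a promoter and 26 bp at Nfe2l2. Over the 319 intervals called in 3 libraries the median span was 72 bp, and 4.70% spanned no more than 13 bp. Over the 150 called in 4 libraries the median was also 72 bp, and 10% spanned no more than 26 bp. Neither gene lay in a stretch of high background, as the local background of the member peaks was 1.33 to 2.5 times the lowest of their lists.

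Both sites were weaker than reference sites of the clock genes Per1, Per2, Dbp and Nr1d1 in the same list. For each clock gene, the site with the best mean rank among those called in the most libraries was taken. All of these were called in all 8 libraries, so they are strong by choice and the comparison only gives a scale. As a measure of strength, the background was subtracted from the summit fragments, the difference was scaled by the list's lowest background, and the result was related to the median of 26 intervals called in all 8 libraries. Hif1a reached 0.471 of that median in male misaligned ZT12 and 0.465 in male control ZT12, with 0.615 in male misaligned ZT0. Nfe2l2 reached 0.274 in female misaligned ZT12, 0.309 in female misaligned ZT0, 0.297 in male misaligned ZT12 and 0.225 in male misaligned ZT0. Per1, the light-responsive clock repressor, stood at 1.56 to 2.05 over the 8 libraries, and Dbp, a clock-driven PAR-bZIP factor, at 1.19 to 1.57. On this scale the Hif1a values of the misaligned and control male livers at ZT12 were nearly equal, although male misaligned ZT12 had 5542 peaks and male control ZT12 had 290.

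**Figure D4:**
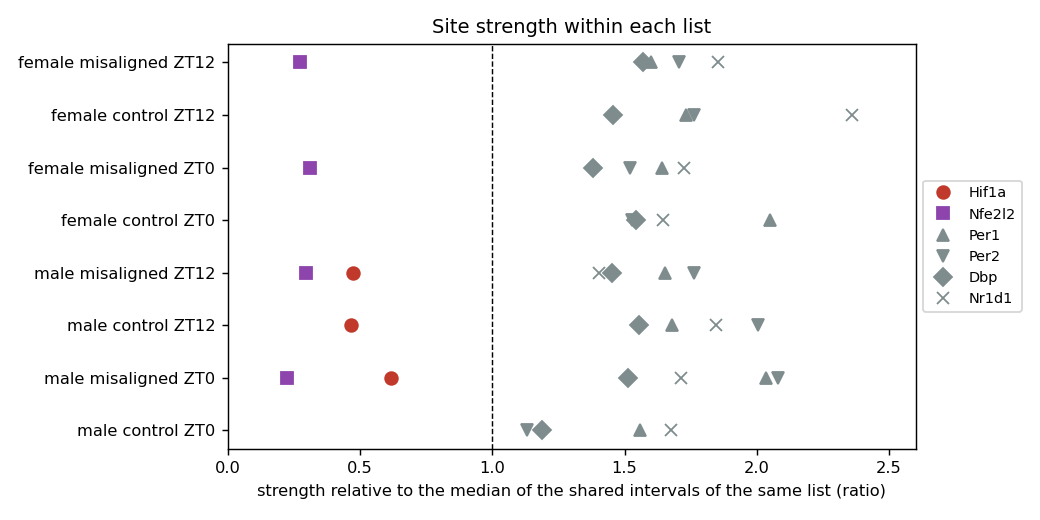
Strength of the Hif1a promoter site (red circles), the Nfe2l2 site (purple squares) and sites of 4 clock genes (grey) in each library, as a ratio to the median of 26 intervals called in all 8 libraries (dashed line at 1). Hif1a lies between 0.465 and 0.615 and Nfe2l2 between 0.225 and 0.309, below every clock gene site shown, each picked as the best-ranked widely called site of its gene.

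Misaligned and control livers of the same sex and time differed in their calls at Nfe2l2 in all 4 pairs, and at the Hif1a promoter in 1. Nfe2l2 had a misaligned call and no control call in females at ZT12 (as had 2.09% of the 7043 intervals), females at ZT0 (17.6%), males at ZT12 (75.5%) and males at ZT0 (22.6%). Altogether 15 intervals, 0.213%, were called in all 4 misaligned libraries and in no control library. At the Hif1a promoter, the misaligned library alone had the call in males at ZT0. In males at ZT12 the promoter was called in both, as were 3.17% of intervals, and in females in neither. With the distal intervals counted, Hif1a also differed in females at ZT0, through the interval of rank 1251. These calls chose the genes, so nothing is read from them.

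Each misaligned list was longer than the control list of its sex and time, and Nfe2l2 was not among their strongest sites. It ranked 150 of 221 in female misaligned ZT12, 333 of 1330 in female misaligned ZT0, 427 of 5542 in male misaligned ZT12 and 415 of 1864 in male misaligned ZT0. With every list shortened to its 141 strongest peaks, the length of the shortest, Nfe2l2 was called in 0 libraries. The Hif1a promoter ranked 120 of 5542 in male misaligned ZT12, 80 of 290 in male control ZT12 and 51 of 1864 in male misaligned ZT0, and it was called in the same 3 libraries in the shortened lists. What part list length had in the calls was not tested.

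Between ZT12 and ZT0 of the same sex and treatment, the Hif1a promoter was called at ZT12 and not at ZT0 in male controls, as were 2.2% of all intervals. It was called at both times in misaligned males (14% of intervals) and at neither in females. Nfe2l2 was called at both times in misaligned females (2.1%) and misaligned males, and at neither time in the controls. In females against males, the Hif1a promoter was called in the male and not the female library of 3 pairs. These were misaligned mice at ZT12 (76.2% of intervals), controls at ZT12 (2.9%) and misaligned mice at ZT0 (18.6%), while controls at ZT0 had it in neither sex. Nfe2l2 was called in both sexes in misaligned mice at ZT12 (2.47%) and ZT0 (7.78%).

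Just before the start of Nfe2l2, a second and weaker interval (chr2:75704544-75705448) is given by the authors to E030042O20Rik, so it is not a member. It was called in female misaligned ZT0 with 26 fragments (-log10 q 2.38), in male misaligned ZT12 with 32 (2.99) and in male misaligned ZT0 with 23 (1.84), and in no control library. Its peaks ranked 91.1%, 78.6% and 93.8% of the way down those lists, in which 18.8%, 78.7% and 26.4% of all intervals were called. Its summits lay between -455 and -375 bp of the Nfe2l2 start. In male misaligned ZT12 the peak ran from -719 to 119 bp and so covered the promoter sequence printed above, which has no E-box or E-prime box and 1 antioxidant response element core, at -240 to -232. That core was in 10.2% of all windows.

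Intervals with the same calls as the member were then ranked by likeness, the mean absolute difference of rank as a percentage of list length. The Hif1a promoter shared its 3 libraries exactly with 24 other intervals, and had the best mean rank of the 25. Among the 3 most alike were those at Ammecr1l (mean difference 4.97 percentage points over 3 libraries) and Vegfa (11.5). Vegfa encodes the main growth factor of blood vessels and is a target of HIF1A, and the interval in question (chr17:46051381-46051839) lies at -19233 bp from its start. Its -log10 q was 64.5 in male misaligned ZT12 and 13.9 in male control ZT12, with 10.2 in male misaligned ZT0. The Nfe2l2 interval shared its 4 libraries with 14 others and was at place 9 of 15 by mean rank. The nearest were those at Rbbp6 (6.00 percentage points over 4 libraries) and Gm25794 (6.02).

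Every library had a BMAL1 peak at some gene of the HIF pathway, but only Bnip3 had one in all 8, and in female control ZT12 it was the only gene. By the distances of the authors' table, 13 of the 38 listed genes carried a peak at most 10 kb from the start in at least 1 library, 9 in at least 2 and 4 in at least 4. Of all 21896 protein-coding genes, 11.1%, 3.45% and 0.758% did, and the HIF counts are 34.2%, 23.7% and 10.5% of the list. The median number of libraries with a peak was 0 for the list and for all genes. By library the HIF genes numbered 2 in female misaligned ZT12 (background 0.457%) and 1 in female control ZT12 (0.242%). They numbered 9 in female misaligned ZT0 (2.94%) and 4 in female control ZT0 (0.411%). In males they were 9 in misaligned ZT12 (8.91%) and 3 in control ZT12 (0.484%), and 8 in misaligned ZT0 (3.52%) and 3 in control ZT0 (0.804%). The list was drawn up with earlier results of these data known. With all lists at 141 peaks, 4 of the 38 genes remained with a peak, against 0.849% of all genes.

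Among the oxygen sensors, Egln2, a prolyl hydroxylase that marks HIF1A for destruction, was the one of 8 sensor and partner genes with a peak within 10 kb by the authors' distances. That is 12.5% of the genes, close to the 11.1% of all protein-coding genes. It was called in 5 libraries, with -log10 q of 24.7 in female misaligned ZT0, 2.16 in female control ZT0, 30.5 in male misaligned ZT12 and 25.2 in male misaligned ZT0, with 12.7 in male control ZT0. Epas1, the gene of HIF2A, had an intronic interval 22881 bp from the start in male misaligned ZT12 (-log10 q 15.4) and male control ZT0 (2.69). By the authors' distances no peak within 10 kb was given to Arnt, Vhl, Egln1, Egln3, Hif1an or Hif3a, and by RefSeq starts Hif1an had one in 1 library.

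Of the 30 HIF target genes, 12 had a peak within 10 kb in at least 1 library (40%, against 11.1% of all protein-coding genes). Bnip3, a mitophagy receptor of the outer mitochondrial membrane, had one in all 8 libraries. Its promoter interval (chr7:138909163-138909998) had -log10 q of 34.9 in female misaligned ZT12, 15.1 in female control ZT12, 114 in female misaligned ZT0 and 12.1 in female control ZT0. In males it was 131 in misaligned ZT12, 66.2 in control ZT12, 73.7 in misaligned ZT0 and 62.4 in control ZT0. The -log10 q, which depends on depth, was higher in the misaligned library of each pair, and the fold enrichment in 3 of the 4, with little difference in males. The fold was 6.35 in misaligned and 3.81 in control females at ZT12, and 15.9 in misaligned and 5.10 in control females at ZT0. In males it was 12.7 in misaligned and 12.8 in control livers at ZT12, and 11.8 in misaligned and 11.6 in control livers at ZT0. Ldha, the lactate dehydrogenase subunit that ends anaerobic glycolysis, had one in 6 libraries, all but the female ZT12 pair. Its -log10 q was 19.8 in female misaligned ZT0, 6.39 in female control ZT0, 30.3 in male misaligned ZT12 and 4.50 in male control ZT12. At ZT0 it was 12.4 in male misaligned, against 12.3 in male control ZT0. Both promoters hold E-boxes, as Hif1a does, and are printed in the same way to show where the summits fell. Other HIF genes had summits in windows with 0 E-boxes. These were Egln2 (summits in 4 libraries), Ankrd37 (3), Aldoa (2) and Pgam1 (2), and of these only the Egln2 window holds an E-prime box.
Bnip3 promoter: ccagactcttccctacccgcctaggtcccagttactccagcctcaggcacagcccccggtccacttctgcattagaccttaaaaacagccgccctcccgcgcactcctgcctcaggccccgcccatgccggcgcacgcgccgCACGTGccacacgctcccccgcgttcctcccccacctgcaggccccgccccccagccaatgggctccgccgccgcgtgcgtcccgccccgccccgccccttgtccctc
Ldha promoter: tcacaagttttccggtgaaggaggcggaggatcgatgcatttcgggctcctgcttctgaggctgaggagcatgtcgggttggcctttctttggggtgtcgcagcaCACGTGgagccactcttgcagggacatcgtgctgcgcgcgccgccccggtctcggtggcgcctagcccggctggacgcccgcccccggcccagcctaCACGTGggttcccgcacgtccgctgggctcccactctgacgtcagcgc
The Bnip3 window is chr7:138909507-138909756 on the minus strand, and its E-box, at -108 to -103, lay 0.5 to 41.5 bp from the summits of the 8 libraries. The Ldha window is chr7:46845554-46845803 on the plus strand, with E-boxes at -145 to -140 and -48 to -43. Summits of 3 libraries fell in it, at -3.5 bp from the centre of the nearer E-box in male misaligned ZT12, -43.5 bp in female misaligned ZT0 and -38.5 bp in female control ZT0, minus meaning upstream.

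Other HIF targets with a peak in at least 2 libraries included Pdk1 (the kinase that closes the entry of pyruvate into mitochondria, 3 libraries), Ankrd37 (3), the glycolytic genes Aldoa and Pgam1 (2 each) and Ndrg1 (2). Within 10 kb, Aldoa, Pgam1 and Ndrg1 were called in misaligned libraries only. Of all protein-coding genes, 0.457% to 8.91% had such a peak in each misaligned library and 0.242% to 0.804% in each control library. The share of all genes called in misaligned libraries only was not counted, so no difference between treatments is read from these calls. Pdk1 was called in 2 misaligned libraries and 1 control library, and so was Ankrd37. The Pdk1 calls came from 2 intervals. The intronic one was called in female control ZT0 and male misaligned ZT12, and the promoter one in male misaligned ZT12 and male misaligned ZT0. Pfkl, the liver form of phosphofructokinase, had an interval called in 6 libraries (chr10:78008844-78010072, -log10 q 88.4 in male misaligned ZT12) that the table puts at -17282 bp from a start and that lies within 10 kb of a RefSeq start of Pfkl.

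**Figure D5:**
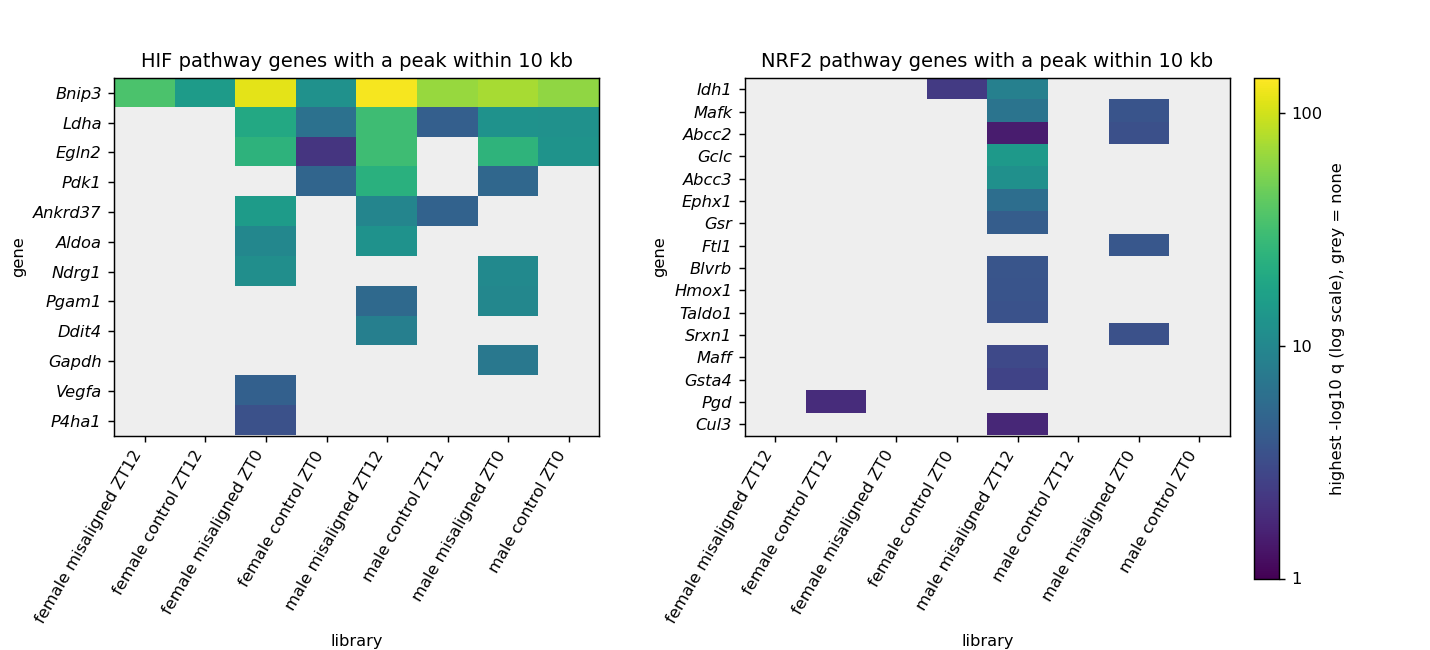
Highest -log10 q (colour, log scale) of a peak within 10 kb of the start for 12 of the 13 HIF pathway genes (left) and all 16 NRF2 pathway genes (right) that had one, by library; grey means no peak. Bnip3 is filled in all 8 libraries, and 13 of the 16 NRF2 genes are filled in male misaligned ZT12, a share of 81.2% against 80.0% of all genes with a peak.

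Of 44 genes of the NRF2 pathway, 16 had a peak within 10 kb in at least 1 library (36.4%, against 11.1% of all protein-coding genes), 3 in at least 2 (6.82% against 3.45%) and 0 in at least 4 (against 0.758%). By library 13 were in male misaligned ZT12 (background 8.91%) and 4 in male misaligned ZT0 (3.52%). Female control ZT12 (0.242%) and female control ZT0 (0.411%) had 1 each. Female misaligned ZT12 (0.457%), female misaligned ZT0 (2.94%), male control ZT12 (0.484%) and male control ZT0 (0.804%) had 0. The 13 genes in male misaligned ZT12 are 81.2% of the 16, and over all protein-coding genes with a peak the share called in that library was 80.0%. Without male misaligned ZT12 the number with a peak was 6, and that of the HIF list 12, against 5.51% of all genes. The median of the highest -log10 q was 3.64 over the 16 NRF2 genes and 12.4 over the 13 HIF genes, against 5.90 over the 2437 protein-coding genes with a peak.

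By the authors' distances, the 3 NRF2 genes called in 2 libraries were Mafk, a small MAF partner of NRF2, Idh1, a cytosolic source of NADPH, and Abcc2, an export pump of bile. Mafk had -log10 q of 6.78 in male misaligned ZT12 and 3.64 in male misaligned ZT0. Idh1 had 8.66 in male misaligned ZT12 and 2.32 in female control ZT0. Abcc2 had 1.45 in male misaligned ZT12 and 3.33 in male misaligned ZT0, at different intervals. A stronger interval (chr19:43782019-43782417), which the table puts at -28304 bp, covers another RefSeq start of Abcc2 and had 13.9 in male misaligned ZT12 and 10.5 in male misaligned ZT0. Both of its summits lay in the window before that start, which holds an antioxidant response element core at -98 to -90, at 0 and -9 bp from the core's centre. Such a core stood in 16.6% and 18.8% of the windows with a summit in those libraries. In a window of Aldoa that also holds one, summits lay 104 bp from it in male misaligned ZT12 and 116 bp in female misaligned ZT0. Distances to this core were not collected over all windows. Counted from RefSeq starts, 6 NRF2 genes were called in at least 2 libraries, with Cbr1 and Ftl1 in 3 and Gss in 2, and female misaligned ZT0 had 2 NRF2 genes in place of 0. The strongest NRF2 genes by -log10 q within 10 kb of the start in the authors' table were Gclc, the catalytic subunit of the first step of glutathione synthesis, with 14.3, and Abcc3, an exporter of conjugates, with 12.1, both in male misaligned ZT12 alone. The standard targets Hmox1 and Gsr were also called there alone, with 3.59 and 4.34, and Cul3 with 1.73. By the authors' distances no peak within 10 kb was given to Keap1, Nqo1, Gclm or Txnrd1 in any library.

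Among marker genes of liver cells, the hepatocyte genes Apoe, Cps1 and Foxa3 had a peak within 10 kb in 1 library each and Alb and Hnf4a in 0. Clec4f (Kupffer cells), Lrat (stellate cells), Stab2 (endothelium), Krt19 (bile ducts) and Cd3e (lymphocytes) also had 0. Of all protein-coding genes, 11.1% had such a peak in at least 1 library. Peaks of BMAL1 do not measure expression, so these counts cannot check the tissue. Peak counts ranged from 141 to 5542 per list. The lowest local background, a value that grows with sequencing depth, was 4.25 to 6.16 fragments. In females it was 6.14 in misaligned ZT12, 5.67 in control ZT12, 5.06 in misaligned ZT0 and 4.84 in control ZT0. In males it was 4.25 in misaligned ZT12, 4.39 in control ZT12, 4.32 in misaligned ZT0 and 6.16 in control ZT0. What part depth had in the calls was not tested. Read depth is not given in the files.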

How the data were processed

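Per the submitters' processing notes, the tools were BWA 0.7.17-r1188 for alignment and MACS2 2.2.7.1 for peaks, and the build was GRCm38. The q threshold, the genome size used and the role of the IgG libraries are not given in the sources used here. The IgG libraries were not used here. The deposited lists, 1 per BMAL1 library, give every peak 4 values from the authors' peak caller, namely a score, a fold enrichment (the ratio of summit to background), a -log10 p and a -log10 q. A table deposited with them merges the 9986 peaks into 7043 intervals with a call per library and, for the nearest gene, its name and distance. All its calls matched the lists.

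From these, the number of fragments at the summit and the background under it were worked back (from fold and p, relative tolerance 0.0001), for 100% of peaks. The recovery and the overlap step were tested on simulated data. Counting intervals are exact Poisson 95%. Peaks were linked to intervals by at least 1 bp. The lowest callable ratio used the weakest p of each list. Python 3.11.15, numpy 2.4.6, pandas 2.3.3 and scipy 1.17.1 were used. RefSeq GRCm38.p6 gave gene positions, all 82 list genes and the promoter sequences, so both use 1 build. Motifs were searched on both strands. No test was run, since the genes were chosen by their calls and each group had 1 library.

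The members and gene lists were chosen with earlier results of these data known. Genes were named by rule: every member interval, list genes with a peak in 2 or more libraries, otherwise the strongest 4, the 3 most alike intervals, and clock references. Further list genes (Hmox1, Gsr, Cul3, Epas1, Pfkl, Cbr1, Ftl1, Gss and those without a peak) were named after their values were seen. Some genes that the rule names are not reported here. The alternatives tried were -log10 q of at least 3, other distances, lists of equal length, RefSeq gene spans, 50% overlap and leaving out peaks of high background.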

Additional observations from a re-analysis of the deposited data

Results flagged for a closer look

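A weaker interval at the start of Nfe2l2, which the authors give to the divergent transcript E030042O20Rik, was called in 3 misaligned libraries and in 0 control libraries, and it stands outside the intervals assigned to Nfe2l2. Its -log10 q was 2.38 in female misaligned ZT0, 2.99 in male misaligned ZT12 and 1.84 in male misaligned ZT0, and the difference between treatments was not tested. The peaks ranked 91.1%, 78.6% and 93.8% of the way down those lists, in which 18.8%, 78.7% and 26.4% of all intervals were called. Those 3 lists, with 1330, 5542 and 1864 peaks, were also the longest. How many other intervals had the same calls was not counted, so no difference between treatments is read from them.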

How the results depend on the processing

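No paired analysis was possible because the groups share only replicate number 1 and the counts, by which the genes were chosen, come from no test. Of 51 recomputed summary counts, 42 stayed within 1.5 times the reported value. With distances taken from the authors' table, Hif1a was called in 0 libraries within 10 kb and in 0 within 1 kb, and the number of gene and pair combinations called at ZT12 and not at ZT0 was 0 in place of 1, because the table measures to a start far from the interval (-30007 bp). Within 10 kb of a RefSeq start, an alternative added after seeing the data, Hif1a was called in 3. With lists of equal length, Nfe2l2 was called in 0 libraries in place of 4, the combinations with a misaligned call alone were 1 in place of 6 of 8, and the HIF and NRF2 lists had 4 and 1 genes in place of 13 and 16. Leaving out male misaligned ZT12, also added later, left 6 NRF2 genes. The RefSeq start alternative covers 70 of the 82 list genes. Of 96 counts by single library, 77 stayed within those bounds and 19 did not. Some counts of both kinds that stayed, among them all of females against males, were 0 as reported. The count of females against males took only calls in the female and not the male library. It leaves out the Hif1a promoter, which was called in the male library alone in 3 pairs. Stricter settings cannot raise a 0. The distal Hif1a peaks rest on 20 to 43 fragments, so their counting intervals are wide.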
